A study of Mus musculus with 17 samples.

Results

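Meiotic and germline genes were followed in erythroblasts from the spleens of mice that carry a Spi1 transgene, a set of 36 genes chosen by name among the 28600 genes with a row in the tables of model 1 or model 2. Of the 36 genes, 28 had a row in model 1 and 23 in model 2, and the 6 with a row in neither had no count. Spi1 encodes the transcription factor PU.1, whose overexpression blocks erythroid differentiation. Fanca encodes a subunit of the Fanconi anaemia core complex, which acts in the repair of DNA crosslinks. Blasts of 17 mice by the labels, 1 library per mouse, were cultured with erythropoietin (EPO) before polyadenylated RNA was sequenced. Model 1 was of the mixed strain DBA2JxFVB/N. Its TgSpi1FA+/+ preleukaemic group held 4 libraries, titled preleukemic_445, preleukemic_479, preleukemic_451 and preleukemic_138. Its TgSpi1FA-/- preleukaemic group held 3 (preleukemic_77, preleukemic_224 and preleukemic_40), and its TgSpi1FA-/- leukaemic group held 3 (leukemic_26, leukemic_28 and leukemic_39). In model 2, of the strain DBA2J and with wild-type Fanca, the preleukaemic group held 4 libraries (preleukemic_633, preleukemic_663, preleukemic_812 and preleukemic_837) and the leukaemic group 3 (leukemic_601, leukemic_606 and leukemic_921), from mice whose leukaemia arose after serial blood transfusion. Where a sentence lists 1 value per library of a group, the values follow this order. All groups carry the Spi1 transgene, and no library came from mice without it or from testis. Preleukaemic blasts depend on EPO and do not form tumours, whereas leukaemic blasts do not need EPO and are tumorigenic. Strain, RNA input (400 ng in model 1, 300 ng in model 2) and fragmentation time (8 min and 2 min) differ between the models and cannot be told apart from the model.

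Meiosis reduces the chromosome number of germ cells through a pair of divisions. In its first prophase the cohesins REC8 and STAG3 and the HORMAD proteins build a chromosome axis, SPO11 cuts DNA at sites marked by the histone methyltransferase PRDM9, DMC1 and MEIOB process the breaks, MSH4, MSH5 and RNF212 stabilise crossover intermediates, and the synaptonemal complex, whose transverse filament is SYCP1 and whose central element holds SYCE1, SYCE2 and TEX12, zips the homologues together. The piRNA pathway, with PIWI proteins, Tudor proteins and the helicase DDX4, silences transposons in germ cells. Promoters of many of these genes are methylated and bound by repressors such as the E2F6 complex in somatic cells, where the genes are normally silent.

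Libraries held 29964576 to 38217654 counts in model 1 and 37726753 to 40514205 in model 2. Levels are given as CPM, counts scaled to a library of 1000000 counts after TMM normalisation, and 3 counts, taken here as the floor, stood for 0.0741 to 0.0984 CPM. Fanca was at 0.614 to 2.30 CPM in the 6 TgSpi1FA-/- libraries of model 1 and at 28.1 to 83.5 CPM in the 11 others. Of 12 erythroid blast markers, 9 to 11 were at 1 CPM or more in every library of each group, and their summed level was 2290 to 10528 CPM. The 10 haploid spermatid genes, among them the protamines, summed to at most 0.560 CPM in any library, 6 myeloid markers to at most 1.78 CPM and 6 lymphoid markers to at most 0.222 CPM. In each group, 1 of 6 testis somatic markers was at 1 CPM or more in every library. Star was at 0.260 CPM or more in every library, and Amh at 0.297 CPM or more in 4 preleukaemic and 3 leukaemic libraries of model 1. The 6 testis somatic markers summed to 1.49 to 13.1 CPM, with Fshr at 0 in all groups. The top of that range was leukemic_39, where Inha, an inhibin subunit named here after its values were seen, stood at 9.15 CPM (362 counts) against 0 counts in every other library. The same library was the one with the lowest erythroid sum. The 6 mast cell markers summed to 97.7 to 155 CPM in model 2 leukaemic libraries, against 3.73 to 59.1 CPM in the preleukaemic ones. In model 1 they summed to 8.71 to 92.8 CPM in TgSpi1FA+/+ preleukaemic libraries. Those of TgSpi1FA-/- blasts held 2.36 to 32.0 CPM before and 0.328 to 11.3 CPM at leukaemia. The libraries labelled preleukemic_445 and preleukemic_479 were far more alike than other pairs within a group of model 1, with a chi-square statistic of their counts, divided by its degrees of freedom, of 8.62 against 116 to 378. Nr1h5, the neighbour of Sycp1, had 516 counts in preleukemic_445 and 326 in preleukemic_479, but in a second deposited counting of the same mice it had 7 and 7869, so the tests for FANCA loss and those of Sycp1 and Syce2 are also given without the library labelled preleukemic_445. The labels give these libraries to different mice, and whether both came from 1 mouse was not settled by the files, so n = 4 for this group may count 1 mouse more than once. The TgSpi1FA-/- preleukaemic libraries carry "leukemic" in their column names and source field, and were grouped by title and cell type.

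To show what the promoters of such genes look like, the 250 bases before the RefSeq start (GRCm38.p6) are printed for 6 members. They are Sycp1, which was high in 1 library, Syce2, Msh5, Prdm9 and Dazl, which were expressed, and Mael, which had no count. The windows are chr3:102936101-102936350 on the minus strand for Sycp1, chr8:84871861-84872110 on the plus strand for Syce2, chr17:35046623-35046872 on the minus strand for Msh5, chr17:15564355-15564604 on the minus strand for Prdm9, chr17:50293621-50293870 on the minus strand for Dazl and chr1:166238745-166238994 on the minus strand for Mael. Sequences run 5′ to 3′ along the gene, and capitals mark TCCCGC, the core of the E2F6 site, and CACGTG, the E-box of MYC and MAX family factors, on either strand.
Sycp1: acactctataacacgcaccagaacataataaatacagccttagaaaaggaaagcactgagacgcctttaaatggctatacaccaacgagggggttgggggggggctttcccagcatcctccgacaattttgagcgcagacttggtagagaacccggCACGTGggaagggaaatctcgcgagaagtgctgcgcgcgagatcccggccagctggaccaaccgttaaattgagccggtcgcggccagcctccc
Syce2: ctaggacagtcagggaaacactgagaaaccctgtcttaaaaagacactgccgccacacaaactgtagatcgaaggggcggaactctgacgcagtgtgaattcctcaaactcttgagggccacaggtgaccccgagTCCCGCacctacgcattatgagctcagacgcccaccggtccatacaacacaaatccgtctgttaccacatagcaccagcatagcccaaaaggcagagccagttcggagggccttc
Msh5: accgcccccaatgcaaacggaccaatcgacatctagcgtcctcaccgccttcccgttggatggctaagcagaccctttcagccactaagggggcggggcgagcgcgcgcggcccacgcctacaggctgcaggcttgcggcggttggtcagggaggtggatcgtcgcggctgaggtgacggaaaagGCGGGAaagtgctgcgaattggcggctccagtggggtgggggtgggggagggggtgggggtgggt
Prdm9: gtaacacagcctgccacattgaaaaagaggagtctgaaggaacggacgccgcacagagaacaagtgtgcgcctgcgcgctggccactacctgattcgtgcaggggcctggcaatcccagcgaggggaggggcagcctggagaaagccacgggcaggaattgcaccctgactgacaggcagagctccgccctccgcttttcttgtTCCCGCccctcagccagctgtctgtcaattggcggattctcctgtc
Dazl: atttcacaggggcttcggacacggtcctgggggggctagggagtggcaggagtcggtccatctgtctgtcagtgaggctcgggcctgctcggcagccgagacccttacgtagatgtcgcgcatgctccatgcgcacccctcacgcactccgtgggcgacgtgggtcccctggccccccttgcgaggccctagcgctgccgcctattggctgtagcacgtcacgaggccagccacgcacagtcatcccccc
Mael: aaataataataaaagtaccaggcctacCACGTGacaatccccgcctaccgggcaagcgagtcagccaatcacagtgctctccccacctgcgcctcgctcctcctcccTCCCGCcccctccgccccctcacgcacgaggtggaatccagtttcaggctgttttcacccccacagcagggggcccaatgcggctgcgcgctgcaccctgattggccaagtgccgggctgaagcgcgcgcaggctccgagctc

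The TCCCGC core stood once in the printed stretch of Syce2, Msh5, Prdm9 and Mael, and the E-box once in those of Sycp1 and Mael. In the GENCODE annotation, Msh5 starts at chr17:35046745, inside its printed stretch, so its marked core lies within the annotated gene. Over the whole RefSeq window, 250 bases before to 50 bases after the start, 31 members had an entry, and Meiob, Spo11, Tdrd6, Piwil2 and Tex15 had none. TCCCGC or its reverse complement was found in 16 of the 31 windows (51.6%), against 26.5% of 16522 protein-coding genes and 19.98% of all 32851 windows. CACGTG was found in 12 (38.7%), against 8.11% and 7.15%. The motifs can share at most 1 base. Members held a median of 19 CpG dinucleotides per window (range 2 to 48), against 14 for protein-coding genes. Among the 7 expressed members, 6 held TCCCGC and 1 held CACGTG, whereas among the 24 others with a window, 10 held TCCCGC and 11 held CACGTG. The windows of the expressed members also held more CpG, with a median of 27 against 18, and both motifs contain a CpG. These are matches of letters only, and binding or methylation was not measured.

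Few members were expressed in the blasts. With expression set at 1 CPM or more in at least 2 libraries of a group, 7 of 36 members were expressed in at least 1 group, and in either model the share was 19.4% of the members against 48.9% (model 1) and 45.9% (model 2) of 21951 annotated protein-coding genes. The 7 were Syce2, Rec8, Msh5, Prdm9, Ddx4, Tdrd5 and Dazl. All 7 were expressed in model 2 preleukaemic blasts, 6 in each of the TgSpi1FA+/+ and TgSpi1FA-/- preleukaemic groups of model 1 and in model 2 leukaemic blasts, and 4 (Syce2, Msh5, Prdm9 and Tdrd5) in TgSpi1FA-/- leukaemic blasts. Those 4 passed in all 5 groups, and Syce2, Msh5 and Prdm9 were at 1 CPM or more in all 17 libraries. Under a threshold of more than 3 counts in 2 libraries of a group, 17 members counted as present.

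**Figure D1:**
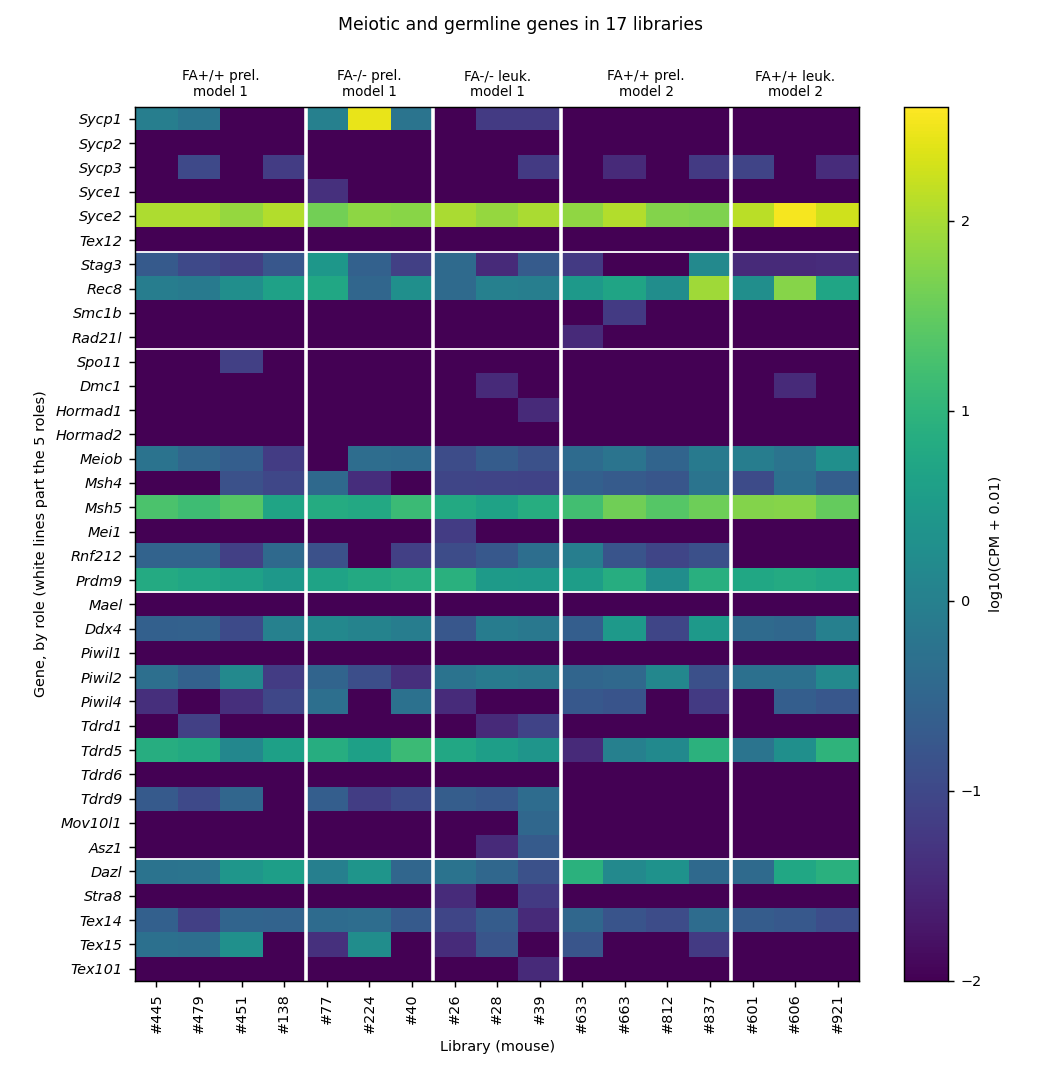
Level of each of the 36 genes (rows, by role) in each of the 17 libraries (columns, by group) as log10(CPM + 0.01). Bright rows are Syce2, Msh5 and Prdm9, and Sycp1 is bright in 1 library, preleukemic_224, at 283 CPM.

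A further 12 members were above 3 counts in at least 1 library without being expressed at the threshold of 1 CPM, and 11 never exceeded 3 counts. Of the first 12, Sycp1, Meiob, Piwil2 and Tex15 had enough counts to be tested in model 1 and are described with their roles. Among the others, the highest count was 81 for Stag3 in preleukemic_77, 23 for Msh4 and 17 for Tex14 in preleukemic_837, 37 for Rnf212 in preleukemic_633, and 16 for Piwil4 in preleukemic_40. The TgSpi1FA-/- library leukemic_39 held the highest counts of Tdrd9 (16), Mov10l1 (13) and Asz1 (8), and no other library had a count of Mov10l1. The 11 members at the floor were Sycp3, Syce1, Smc1b, Rad21l, Spo11, Dmc1, Hormad1, Mei1, Tdrd1, Stra8 and Tex101. Sycp2, Tex12, Hormad2, Mael, Piwil1 and Tdrd6 had no count in any of the 17 libraries, and a count of 0 allows up to 3 counts per library.

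No role was expressed as a set. The synaptonemal complex had 1 of 6 members expressed, the meiotic cohesins 1 of 4, recombination and axis genes 2 of 10, the piRNA pathway 2 of 11, and germ cell regulators 1 of 5. SPO11, which makes the breaks, DMC1, which repairs them, and STRA8, which starts the meiotic programme, were all encoded by genes at the floor. In each library, 12 to 22 members had at least 1 count, with the highest number in leukemic_39.

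Per kilobase of exon, the order of the expressed members by median over the 17 libraries was Syce2 (52.1 CPM per kb, range 21.2 to 175), Msh5 (2.90, range 0.821 to 10.5), Prdm9 (1.24, range 0.408 to 1.91), Rec8 (0.646, range 0.110 to 30.4), Tdrd5 (0.590, range 0.00363 to 1.95), Dazl (0.249, range 0.0331 to 2.29) and Ddx4 (0.226, range 0.0265 to 0.969). Syce2 was above Msh5 in all 17 libraries and Msh5 above Prdm9 in 15. From Prdm9 down, each gene was above the next in only 8 to 10 of the 17 libraries, so these neighbours were not separated beyond their spread. Syce2 was the highest member per kilobase in 15 libraries. The exceptions were preleukemic_224, where Sycp1 stood at 79.5 CPM per kb against 32.9 for Syce2, and preleukemic_837, where Rec8 stood at 30.4 against 25.98.

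**Figure D2:**
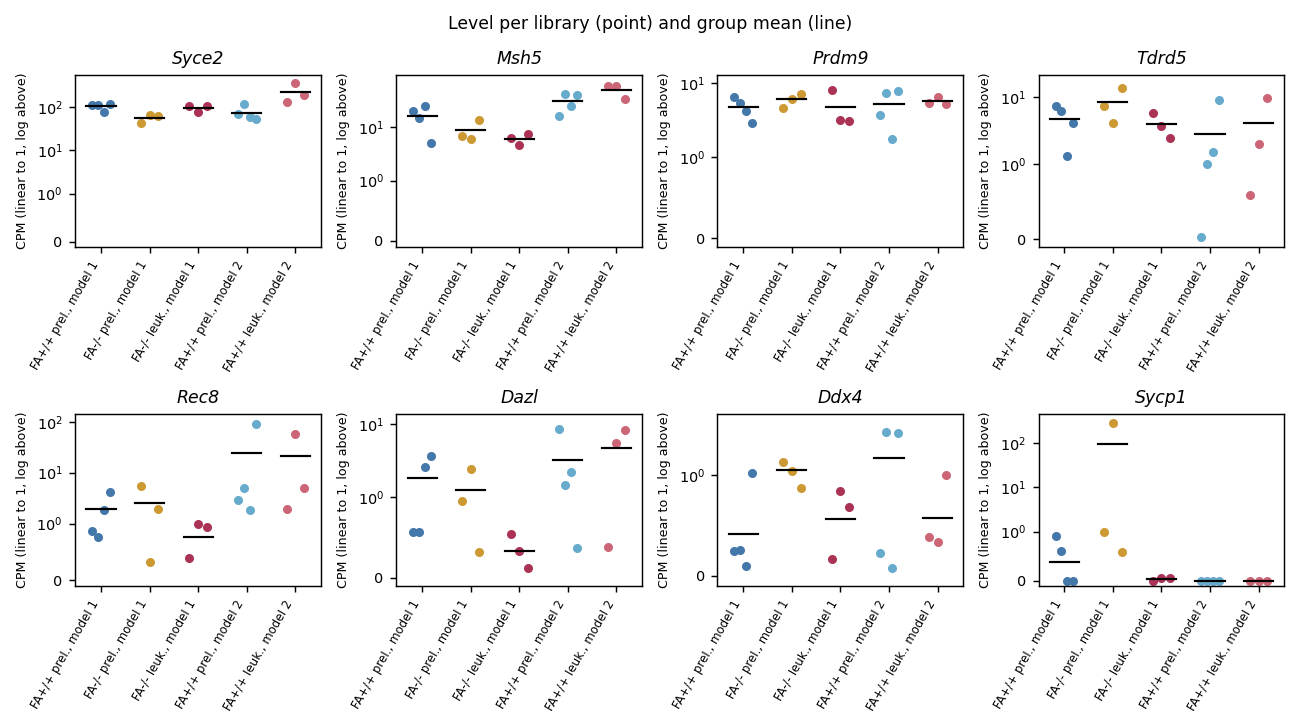
CPM of the 7 expressed members and Sycp1 in each library (points, coloured by group), with the group mean as a line. The axis is linear up to 1 CPM and logarithmic above. Syce2 is high throughout, and single libraries stand far from their group for Rec8 and Sycp1.

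Changes were tested within each model with edgeR's quasi-likelihood test over all genes that passed a filter on low counts, 13393 in model 1 and 12970 in model 2. Of the members, 11 passed in model 1 and 9 of these in model 2, which lacked Sycp1 and Tex15. A gene was called at a Benjamini-Hochberg adjusted p under 0.05 with a fold change of at least 1.5. In bulk RNA, fewer cells that express a gene and less RNA of it per cell cannot be told apart. The first comparison asks what changes when TgSpi1FA-/- blasts become leukaemic, the second what the loss of FANCA changes in preleukaemic blasts, and the third what changes at leukaemia with FANCA present. The first and the second share the TgSpi1FA-/- preleukaemic libraries.

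In TgSpi1FA-/- leukaemic against TgSpi1FA-/- preleukaemic blasts, 1 of the 11 members tested was called, Sycp1, which was lower, and 0 were called higher, where 13.3% of all genes tested were called (6.82% higher and 6.49% lower). Sycp1, Meiob and Tex15 passed the filter on low counts (0.297 CPM in 3 libraries) through preleukaemic libraries alone. They had 0 leukaemic libraries at that level, so the filter favoured a lower level at leukaemia, and the count of calls is a description. For Tex15 the libraries that passed were 3 TgSpi1FA+/+ ones, which are not in this comparison, and 1 TgSpi1FA-/- one. Ddx4 and Dazl each had 2 leukaemic libraries at 0.297 CPM or more, and so passed only with the help of preleukaemic ones. Libraries did not overlap between the groups for 4 members (Syce2 and Piwil2 higher, Sycp1 and Ddx4 lower). Of all genes, 38.7% did not overlap (19.3% higher and 19.5% lower). Sycp1 and Syce2 had an unadjusted p under 0.05 in edgeR, as had 32.4% of all genes. With DESeq2, Syce2 was the 1 member called, where 19.0% of genes with an adjusted p were called (11.6% higher and 7.38% lower).

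In TgSpi1FA-/- against TgSpi1FA+/+ preleukaemic blasts, 0 of the 11 members were called by edgeR and 0 by DESeq2, where 0.00747% (1 gene) and 1.61% of all genes were called (for DESeq2, 0.225% higher and 1.38% lower). Syce2 and Sycp1 had an unadjusted p under 0.05 in edgeR, as had 8.65% of all genes. The groups did not overlap for 1 member, Syce2, against 8.54% of all genes (4.27% in either direction). Without preleukemic_445, 0 members were called by edgeR, and the log2 fold changes were 0.15 for Rec8, -0.74 for Msh5, 0.54 for Prdm9, 1.10 for Tdrd5, 1.25 for Ddx4, -0.87 for Dazl, -1.95 for Piwil2 and 0.47 for Meiob, which was at -0.063 with it.

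In model 2 leukaemic against preleukaemic blasts, edgeR called 0 of 12970 genes and so 0.0% of them and 0 of the 9 members, with 1 member, Syce2, and 19.9% of all genes at an unadjusted p under 0.05. DESeq2 called Syce2, and 3.96% of all genes with an adjusted p (1.22% higher and 2.74% lower). The groups did not overlap for Syce2 alone among the 9 members tested, and for 20.1% of all genes (9.66% higher and 10.4% lower).

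**Figure D3:**
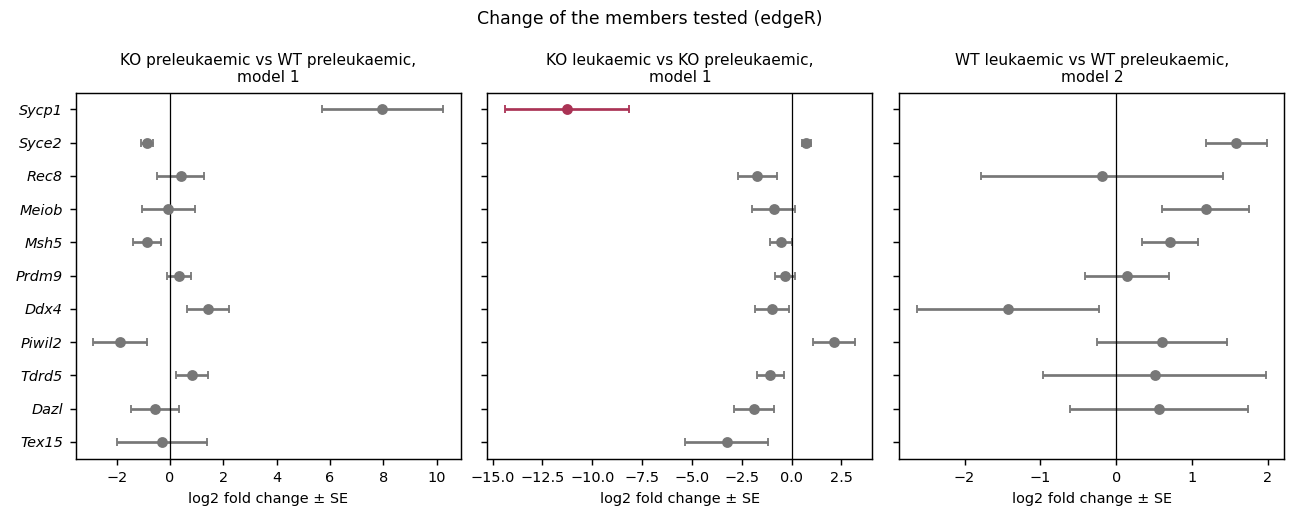
Log2 fold change with its SE (edgeR) of the members tested, in the 3 comparisons named above the panels, in which WT is TgSpi1FA+/+ and KO is TgSpi1FA-/-. The horizontal scales differ between panels. Red marks the 1 called gene, Sycp1 in TgSpi1FA-/- leukaemic against preleukaemic blasts.

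Among the synaptonemal complex genes, Sycp1 (ENSMUSG00000027855, chr3:102818499-102936100, minus strand) had 9674 counts in preleukemic_224, and no more than 30 in any other library. Its level was 0.984, 283 and 0.582 CPM in TgSpi1FA-/- preleukaemic blasts. It was 0.904, 0.603, 0 and 0 CPM in TgSpi1FA+/+ preleukaemic blasts, and 0, 0.0509 and 0.0505 CPM in TgSpi1FA-/- leukaemic blasts. No library of model 2 had a count. The level in preleukemic_224 was 287 times the next highest, that of preleukemic_77, exceeded that of 97.3% of the genes in that library, and made up 76.2% of its counts of the 36 members.

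Sycp1 averaged 94.8 ± 163 CPM (SD, n = 3) in TgSpi1FA-/- preleukaemic and 0.0338 ± 0.0293 CPM (SD, n = 3) in TgSpi1FA-/- leukaemic blasts. The latter was at the floor, so Sycp1 was at least 1213-fold lower in leukaemic blasts against a floor of 3 counts per library, and at least 10.0-fold lower without preleukemic_224. The edgeR adjusted p was 0.0425. It was 0.189 without preleukemic_224, 0.0839 without leukemic_26, 0.131 without leukemic_28, 0.113 without leukemic_39, 0.0601 without preleukemic_445 and 0.0641 without preleukemic_479, and 0.0627 with preleukemic_445 and preleukemic_479 summed to 1 sample. DESeq2 gave no p for Sycp1, as it does where the count of 1 library lies far from its group. A two-sided exact permutation test of the mean CPM gave p = 0.1, the smallest that 3 against 3 libraries allow. Against TgSpi1FA+/+ preleukaemic blasts (0.377 ± 0.452 CPM, SD, n = 4, or 0.201 ± 0.348 CPM, SD, n = 3, without preleukemic_445), the groups overlapped and the edgeR adjusted p was 0.535, or 0.879 without preleukemic_445. Of the 869 genes called lower in leukaemic blasts, Sycp1 was the 1 gene more than 100 times higher in preleukemic_224 than in both other libraries of its group, a measure chosen after its values were seen. Exons of Sycp1 share no base with another annotated gene.

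Nr1h5, which encodes a nuclear receptor and is named here after its values were seen, is the expressed gene next to Sycp1, on the same strand with its start 28.03 kb before that of Sycp1. Sycp1 was above 3 counts in 5 of the 10 libraries of model 1, Nr1h5 was above 3 counts in 5, and they were the same 5, or 4 of 9 without preleukemic_445. Nr1h5 was at 16.1, 10.3, 0 and 0 CPM in TgSpi1FA+/+ preleukaemic, at 36.8, 31.5 and 15.9 CPM in TgSpi1FA-/- preleukaemic and at 0, 0.0255 and 0 CPM in TgSpi1FA-/- leukaemic blasts. It was called lower at leukaemia in TgSpi1FA-/- blasts by edgeR (adjusted p 0.0391) and by DESeq2 (adjusted p 0.000649). The edgeR call was lost without any 1 of the 6 TgSpi1FA-/- libraries, preleukemic_445 or preleukemic_479 (edgeR adjusted p 0.0533 to 0.135). The Nr1h5 level in preleukemic_224 lay between those of the other libraries of its group, unlike that of Sycp1. In the second counting, Sycp1 had 74 counts in preleukemic_479 and 0 in preleukemic_445, where Nr1h5 had 7869 and 7, so 1 of this pair of libraries held counts of both genes there.

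Of the 9 other tested genes whose start lay within 500 kb of that of Sycp1, Nr1h5 among them, none had its highest level of model 1 in preleukemic_224 (0 of 9). On the log2(CPM + 0.1) scale the difference between preleukemic_224 and the mean of preleukemic_77 and preleukemic_40 was 8.36 for Sycp1 and -0.58 to 1.18 for these 9 genes (median 0.089). Over the 76 other genes within 5 Mb it had a median of -0.066 and reached 4.52. On the same scale, TgSpi1FA-/- leukaemic minus preleukaemic blasts gave -5.50 for Sycp1 and -7.94 for Nr1h5. The rest of the 9 genes stood higher at leukaemia, from 0.40 (Dennd2c) to 2.45 (Gm43062), and the median over the 9 was 1.32.

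**Figure D4:**
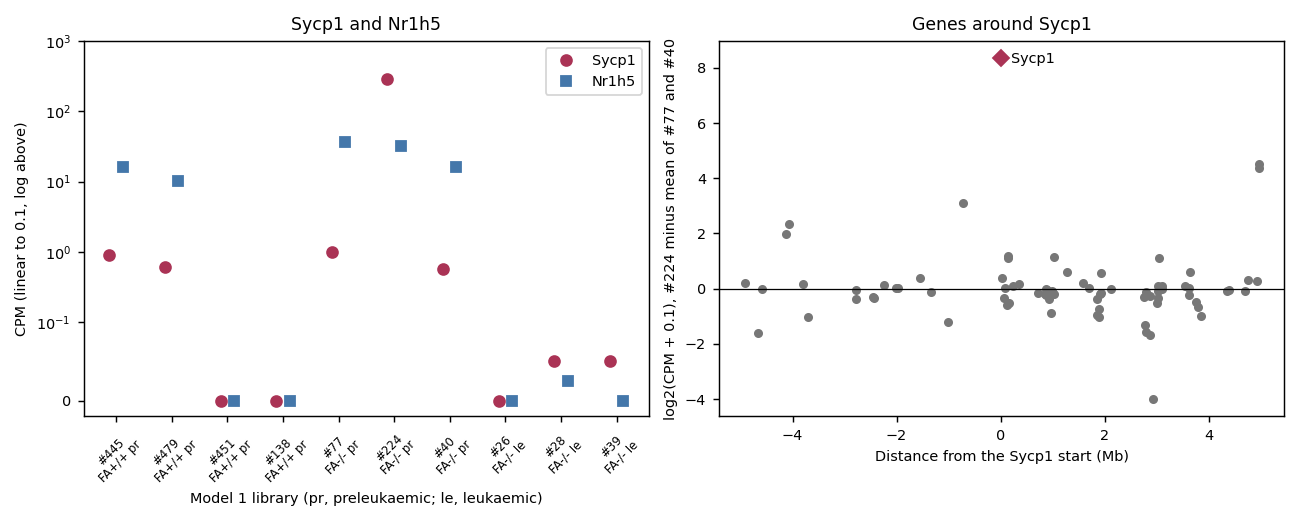
Left, CPM of Sycp1 and of its neighbour Nr1h5 in the 10 libraries of model 1 (pr, preleukaemic; le, leukaemic). Right, each tested gene within 5 Mb of the start of Sycp1, with the log2(CPM + 0.1) of preleukemic_224 minus the mean of preleukemic_77 and preleukemic_40. Both genes are above 3 counts in the same 5 libraries, and Sycp1 stands at 8.36 on the right where the other genes reach 4.52.

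Syce2 (ENSMUSG00000003824, chr8:84872111-84888221, plus strand) encodes a central element protein and had the highest level per kilobase in 15 libraries. In TgSpi1FA+/+ preleukaemic blasts of model 1 it was at 109, 107, 74.6 and 116 CPM, in TgSpi1FA-/- preleukaemic blasts at 41.6, 64.8 and 61.8 CPM, and in TgSpi1FA-/- leukaemic blasts at 102, 74.8 and 105 CPM. The TgSpi1FA-/- preleukaemic libraries were thus the 3 lowest of model 1, below every library of the other groups. In model 2 the preleukaemic libraries were at 69.2, 115, 56.8 and 51.1 CPM and the leukaemic ones at 131, 345 and 182 CPM, so all leukaemic libraries stood above the preleukaemic ones.

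The mean of Syce2 was 56.1 ± 12.6 CPM (SD, n = 3) in TgSpi1FA-/- preleukaemic and 94.1 ± 16.8 CPM (SD, n = 3) in TgSpi1FA-/- leukaemic blasts. Its log2 fold change was 0.75 (SE 0.23), with an adjusted p of 0.0571 in edgeR, which misses the threshold, and of 0.0287 in DESeq2 (log2 fold change 0.79), which passes it. Over the alternatives fitted with edgeR the adjusted p was 0.0388 to 0.135. It was 0.0388 without preleukemic_451 and 0.0487 with DESeq2 size factors, both under the threshold. Against TgSpi1FA+/+ preleukaemic blasts (102 ± 18.6 CPM, SD, n = 4), the log2 fold change of TgSpi1FA-/- preleukaemic blasts was -0.86 (SE 0.22), with an adjusted p of 0.513 in edgeR and 0.0512 in DESeq2. Without preleukemic_445 the mean of that group was 99.3 ± 21.96 CPM (SD, n = 3) and the log2 fold change -0.83 (edgeR adjusted p 0.879). In model 2 the mean was 73.1 ± 29.1 CPM (SD, n = 4) in preleukaemic and 219 ± 112 CPM (SD, n = 3) in leukaemic blasts. The log2 fold change was 1.58 (SE 0.40), with an adjusted p of 0.162 in edgeR and 0.0320 in DESeq2. The exact two-sided permutation p was 0.0571 in model 2, the smallest that 3 against 4 libraries allow here, and 0.443 after adjustment over the 31 such tests of members. The leukaemic change of Syce2 in model 1 minus that in model 2 was -0.85 on the log2 scale (SE 0.48, adjusted p 0.281), so the changes were not shown to differ.

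Syce2 overlaps Gcdh on the opposite strand, with 0 shared exon bases, and lies 13.7 kb from Klf1, which encodes an erythroid transcription factor. Klf1 was called lower in TgSpi1FA-/- leukaemic blasts, at 137 ± 33.0 against 330 ± 33.7 CPM (SD, n = 3 each, edgeR adjusted p 0.00626), while Syce2 was at higher levels there. In model 2, where the mast cell markers stood higher in leukaemic libraries, Klf1 had a log2 fold change of -0.47 (edgeR adjusted p 0.456). In TgSpi1FA-/- blasts those markers summed to 2.36 to 32.0 CPM before and 0.328 to 11.3 CPM at leukaemia. The part of a change in cell mixture in the Syce2 values was not tested.

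The meiotic cohesin Rec8 (ENSMUSG00000002324, chr14:55618037-55625395, plus strand) was low in most libraries and high in 2 of model 2. In model 1 it was at 0.873, 0.761, 1.86 and 4.23 CPM in TgSpi1FA+/+ preleukaemic, at 5.38, 0.321 and 1.91 CPM in TgSpi1FA-/- preleukaemic and at 0.383, 0.993 and 0.935 CPM in TgSpi1FA-/- leukaemic blasts. Model 2 libraries were at 2.95, 4.89, 1.81 and 89.3 CPM before and at 1.90, 58.1 and 4.99 CPM at leukaemia. The libraries preleukemic_837 and leukemic_606 thus stood apart, 1 in each stage. The log2 fold change was -0.19 (SE 1.59, edgeR adjusted p 0.959) in model 2, and it was 2.75 without preleukemic_837 and -2.84 without leukemic_606, with no call. In model 1 it was -1.71 (SE 0.99, edgeR adjusted p 0.263) at leukaemia and 0.39 (SE 0.89, edgeR adjusted p 0.943) for FANCA loss. Stag3, the cohesin partner of REC8, was also highest within model 2 in preleukemic_837, at 1.43 CPM, but at 0.0254 CPM in leukemic_606.

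Among recombination genes, Msh5 (ENSMUSG00000007035, chr17:35028605-35046745, minus strand), whose product forms a clamp with MSH4, was at 1 CPM or more in all libraries. TgSpi1FA+/+ preleukaemic libraries of model 1 were at 19.8, 14.7, 24.5 and 4.94 CPM, TgSpi1FA-/- preleukaemic ones at 6.79, 6.05 and 13.6 CPM and TgSpi1FA-/- leukaemic ones at 6.13, 4.53 and 7.48 CPM. Levels in model 2 were 16.0, 39.98, 24.7 and 38.9 CPM in preleukaemic and 56.1, 58.3 and 32.7 CPM in leukaemic blasts. Groups overlapped in each comparison. Its log2 fold change was -0.54 (SE 0.56, edgeR adjusted p 0.541) at leukaemia in model 1, -0.86 (SE 0.53, edgeR adjusted p 0.686) for FANCA loss and 0.71 (SE 0.37, edgeR adjusted p 0.325) at leukaemia in model 2. Msh4, the partner, had at most 23 counts.

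Prdm9 (ENSMUSG00000051977, chr17:15543079-15564354, minus strand), which marks recombination sites, was at 1.76 to 8.21 CPM in all libraries. TgSpi1FA+/+ preleukaemic libraries of model 1 held 6.58, 5.36, 4.20 and 2.87 CPM, TgSpi1FA-/- preleukaemic ones 4.66, 6.20 and 7.24 CPM and TgSpi1FA-/- leukaemic ones 8.21, 3.16 and 3.03 CPM. The preleukaemic libraries of model 2 held 3.70, 7.32, 1.76 and 7.96 CPM and the leukaemic ones 5.38, 6.49 and 5.25 CPM, and groups overlapped in each comparison. Group means were 4.75 to 6.03 CPM. The log2 fold changes were -0.33 (SE 0.49), 0.34 (SE 0.45) and 0.14 (SE 0.56) for leukaemia in model 1, FANCA loss and leukaemia in model 2, with edgeR adjusted p of 0.684, 0.880 and 0.914. Single libraries moved the first of these, to -0.95 without leukemic_26 and to -0.055 without leukemic_39, with no call.

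Meiob, which encodes a single-strand DNA binding protein of recombination, was lower still. It had 18, 10, 7 and 2 counts in TgSpi1FA+/+ preleukaemic, 0, 15 and 12 counts in TgSpi1FA-/- preleukaemic and 4, 8 and 5 counts in TgSpi1FA-/- leukaemic libraries of model 1. Those of model 2 had 16, 23, 11 and 30 counts before and 35, 23 and 69 counts at leukaemia. Its log2 fold change at leukaemia in model 2 was 1.18 (edgeR adjusted p 0.297). In model 1 it was -0.89 at leukaemia and -0.063 for FANCA loss, both with wide errors (SE 1.09 and 1.001).

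Rnf212, a SUMO ligase of crossover designation, had too few counts to be tested within a model but passed in the fit across both. In model 1 it had 9, 9, 2 and 13 counts in TgSpi1FA+/+ preleukaemic, 4, 0 and 2 counts in TgSpi1FA-/- preleukaemic and 4, 7 and 18 counts in TgSpi1FA-/- leukaemic libraries. The preleukaemic libraries of model 2 had 37, 6, 3 and 5 counts, and all 3 leukaemic ones had 0. The model 2 groups did not overlap, with a level at least 4.05-fold lower in leukaemic blasts against 3 counts per library, or at least 1.48-fold without preleukemic_633. Of the 14 members tested across the models with counts in both, Rnf212 alone was called for a difference in leukaemic change. The log2 difference, model 1 minus model 2, was 8.56 (SE 2.03, edgeR adjusted p 0.0395, DESeq2 adjusted p 0.0030). Of all genes tested, 4.61% were called by edgeR (2.76% with a positive and 1.85% with a negative difference) and 12.9% by DESeq2 (8.82% and 4.12%). Within the groups compared, the highest counts of Rnf212 were 18 in leukemic_39 and 37 in preleukemic_633. Both raise the difference, so the filter on low counts favoured a positive one, and the call is a description. At an unadjusted p under 0.05 in edgeR stood 25.8% of all genes. The fitted difference depends on how counts of 0 are treated. The call was lost without any 1 of 11 libraries (the 3 TgSpi1FA-/- preleukaemic and the 3 model 2 leukaemic ones, leukemic_28, leukemic_39, preleukemic_445, preleukemic_479 and preleukemic_633), with edgeR adjusted p of 0.0262 to 0.0852 when each library was left out in turn.

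In the piRNA pathway, Tdrd5 (ENSMUSG00000060985, chr1:156255296-156303664, minus strand), a Tudor protein of germ granules, was at 7.27, 6.18, 1.31 and 4.17 CPM in TgSpi1FA+/+ preleukaemic, at 7.38, 4.09 and 13.5 CPM in TgSpi1FA-/- preleukaemic and at 5.78, 3.72 and 2.48 CPM in TgSpi1FA-/- leukaemic blasts of model 1. Preleukaemic libraries of model 2 were at 0.0252, 0.999, 1.52 and 8.90 CPM and leukaemic ones at 0.589, 1.98 and 9.64 CPM. Levels in model 2 spread widely within each group. An antisense gene shares 176 exon bases with Tdrd5 and had at most 2 counts. The log2 fold changes were -1.06 (SE 0.66, edgeR adjusted p 0.301) at leukaemia in model 1, 0.81 (SE 0.61, edgeR adjusted p 0.754) for FANCA loss and 0.51 (SE 1.47, edgeR adjusted p 0.876) at leukaemia in model 2.

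Ddx4 (ENSMUSG00000021758, chr13:112598333-112652475, minus strand), the VASA helicase that marks germ cells, was at 0.249, 0.254, 0.0961 and 1.05 CPM in TgSpi1FA+/+ preleukaemic, at 1.38, 1.11 and 0.873 CPM in TgSpi1FA-/- preleukaemic and at 0.164, 0.841 and 0.682 CPM in TgSpi1FA-/- leukaemic blasts of model 1. Its levels in model 2 were 0.227, 2.92, 0.0799 and 2.89 CPM before and 0.384, 0.330 and 0.993 CPM at leukaemia. The TgSpi1FA-/- preleukaemic libraries all stood above the leukaemic ones of that genotype. The log2 fold change there was -0.98 (SE 0.85, edgeR adjusted p 0.457), it was 1.43 (SE 0.79, edgeR adjusted p 0.645) for FANCA loss, and it was -1.42 (SE 1.202, edgeR adjusted p 0.545) in model 2.

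Piwil2, a PIWI protein, had 15, 8, 45 and 2 counts in TgSpi1FA+/+ preleukaemic, 9, 4 and 1 counts in TgSpi1FA-/- preleukaemic and 20, 30 and 26 counts in TgSpi1FA-/- leukaemic libraries of model 1. Model 2 libraries had 12, 14, 51 and 5 counts before and 19, 19 and 52 counts at leukaemia. The TgSpi1FA-/- leukaemic libraries all stood above the preleukaemic ones, at 0.656 ± 0.108 against 0.148 ± 0.134 CPM (SD, n = 3 each). The log2 fold change was 2.13 (SE 1.05, edgeR adjusted p 0.195). Piwil1 had no count and Piwil4 at most 16.

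Of the germ cell regulators, Dazl (ENSMUSG00000010592, chr17:50279395-50293636, minus strand), an RNA-binding protein that germ cells need, was at 0.561, 0.571, 2.56 and 3.72 CPM in TgSpi1FA+/+ preleukaemic, at 0.952, 2.45 and 0.323 CPM in TgSpi1FA-/- preleukaemic and at 0.548, 0.331 and 0.126 CPM in TgSpi1FA-/- leukaemic blasts of model 1. Preleukaemic libraries of model 2 held 8.73, 1.45, 2.21 and 0.371 CPM and leukaemic ones 0.384, 5.53 and 8.25 CPM. Every group but the TgSpi1FA-/- leukaemic one held at least 1 library above 1 CPM. The log2 fold changes were -1.88 (SE 0.99, edgeR adjusted p 0.219) at leukaemia in model 1, -0.57 (SE 0.90, edgeR adjusted p 0.909) for FANCA loss and 0.56 (SE 1.17, edgeR adjusted p 0.820) at leukaemia in model 2.

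Tex15, which acts in piRNA-directed silencing and meiotic repair, had 64 counts in preleukemic_451 and 61 in preleukemic_224. It had 16 in preleukemic_445 and 14 in preleukemic_479, and 0 to 6 in each of the other libraries of model 1. No library of model 2 had more than 6. Its log2 fold change was -3.25 (SE 2.07, edgeR adjusted p 0.307) at leukaemia in model 1, and 1.69 without preleukemic_224.

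The other genes of these pathways were read from lists of non-members. Of 24 other meiosis genes, 12 were tested in model 1, and Hsf2bp, whose product binds BRCA2 in meiosis, and Brdt, a testis bromodomain protein, were called higher in TgSpi1FA-/- leukaemic blasts and 0 lower, against 6.82% and 6.49% of all genes tested. Hsf2bp passed the filter on low counts through the leukaemic libraries alone, which fixed its direction. Brdt reached the level of the filter in 3 leukaemic, 2 TgSpi1FA+/+ preleukaemic and 0 TgSpi1FA-/- preleukaemic libraries, where 3 were needed. It passed only with the leukaemic libraries, in which it was high, so its call is a description too. Hsf2bp was at 0.877 ± 0.656 against 0.0520 ± 0.0169 CPM (log2 fold change 3.99, SE 0.91, edgeR adjusted p 0.0257) and Brdt at 1.54 ± 0.847 against 0.104 ± 0.0977 CPM (3.84, SE 1.01, adjusted p 0.0372, SD, n = 3 each). The call of Brdt was lost without any 1 of 7 libraries (leukemic_28, leukemic_39, preleukemic_445, preleukemic_479 and each TgSpi1FA-/- preleukaemic one), with edgeR adjusted p of 0.0528 to 0.112. That of Hsf2bp was lost without any 1 TgSpi1FA-/- preleukaemic library (edgeR adjusted p 0.0693 to 0.0875), and the gene missed the filter without leukemic_28, leukemic_39 or preleukemic_138. DESeq2 called Mei4 and Ankrd31 as well, where it called 11.6% of genes with an adjusted p higher. The 2 genes of the list with the highest level in model 1, Sun1, a nuclear envelope protein, and Trip13, an ATPase of the mitotic checkpoint too, were not called by either tool in any of the comparisons. In model 2, edgeR called 0 of 10 and DESeq2 called Psmc3ip and Mnd1, a pair of DMC1 cofactors. DESeq2 called 1.22% of genes with an adjusted p higher there. Psmc3ip and Mnd1 were at 45.2 ± 8.78 against 17.1 ± 4.01 CPM and 38.98 ± 18.7 against 12.2 ± 3.47 CPM (SD, n = 3 and 4, DESeq2 adjusted p 0.0023 and 0.0140, edgeR adjusted p 0.162 for both).

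Of 14 other piRNA genes, edgeR called 0 of 6 tested in model 1, 3 of them with an unadjusted p under 0.05 in the leukaemic comparison, where 32.4% of all genes stood under it. Henmt1, 1 of these 6, passed the filter on low counts through the leukaemic libraries alone. That fixed its direction, so the count is a description. DESeq2 called Tdrd7 and Ddx25 higher at leukaemia, Tdrd7 at 14.6 ± 2.41 against 3.31 ± 2.54 CPM (SD, n = 3 each), and Tdrd7 lower for FANCA loss. Of all genes with an adjusted p, DESeq2 called 11.6% higher at leukaemia in model 1 and 1.38% lower for FANCA loss. The level of Ddx25 in TgSpi1FA-/- leukaemic blasts was 2.57 to 53.4 CPM, with the highest value in leukemic_39. Tdrkh, a Tudor protein of mitochondria that is named here after its values were seen, had 2524 counts (63.8 CPM) in leukemic_39, 22 in preleukemic_224 and 0 in the other 8 libraries of model 1, and was not tested. Of 18 other germ cell genes 3 were tested and 0 called by edgeR, and Nanos1 and Zbtb16 were the highest of the list, with Zbtb16 called lower by DESeq2 for FANCA loss. None of the 10 haploid spermatid genes had enough counts to be tested in either model.

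Genes whose products silence germline genes in somatic cells were all expressed, and 19 of 19 were tested in both models. In TgSpi1FA-/- leukaemic blasts, edgeR called 2 higher and 2 lower, where 13.3% of all genes tested were called. Setdb1, a histone H3K9 methyltransferase, was at 635 ± 231 against 204 ± 15.9 CPM (log2 fold change 1.64, SE 0.27, edgeR adjusted p 0.0103) and Rnf2, a ubiquitin ligase of Polycomb complexes, at 144 ± 21.3 against 70.5 ± 19.3 CPM (1.04, SE 0.21, adjusted p 0.0175). L3mbtl2 (log2 fold change -1.29, SE 0.26, edgeR adjusted p 0.0172) and Ring1 (-1.12, SE 0.30, adjusted p 0.0404), partners of E2F6 and RNF2 in the complex that binds germline promoters, were lower. Setdb1 was called whichever 1 library was left out. The call of Rnf2 was lost without leukemic_28 (edgeR adjusted p 0.0609), that of L3mbtl2 without leukemic_28, leukemic_39 or preleukemic_224 (edgeR adjusted p 0.0509 to 0.0700), and that of Ring1 without any 1 library but leukemic_26 and preleukemic_138 (edgeR adjusted p 0.0506 to 0.108). The DNA methyltransferase Dnmt1 was at 513 ± 133 against 836.7 ± 159 CPM (edgeR adjusted p 0.0577). DESeq2 alone called Dnmt3b higher, where it called 11.6% of genes with an adjusted p higher. Trim28, the scaffold of KRAB repressors, was the highest of the list in both models, followed by Dnmt1 in model 1 and by Tfdp1, a dimer partner of E2F proteins, in model 2. For FANCA loss 0 were called by either tool. In model 2, edgeR called 0, with 8 of 19 at an unadjusted p under 0.05 against 19.9% of all genes. DESeq2 called Dnmt1, Trim28 and Kdm5c lower at leukaemia there, where it called 2.74% of genes with an adjusted p lower. Dnmt1 was at 126 ± 20.01 against 355 ± 53.1 CPM (SD, n = 3 and 4, log2 fold change -1.50, edgeR adjusted p 0.162, DESeq2 adjusted p 3.34e-05). The median log2 fold change of the list at leukaemia was 0.072 in model 1, against -0.0012 over all genes tested, and -0.42 in model 2, against -0.030. Whether these repressors bear on the levels of the 36 genes was not tested.

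**Figure D5:**
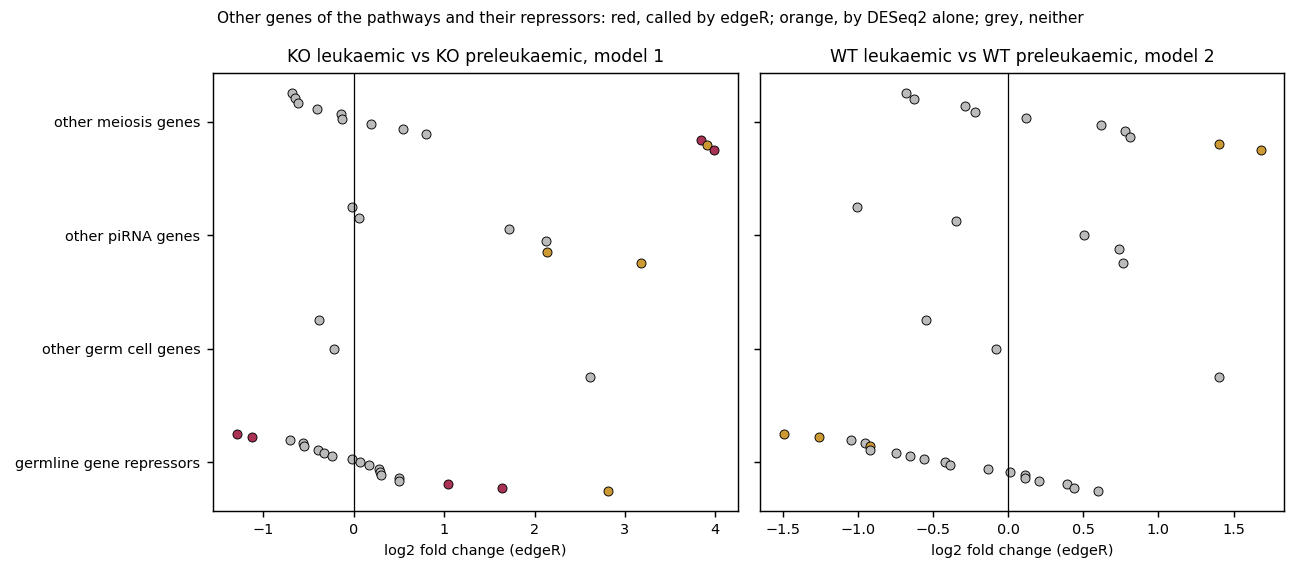
Log2 fold change at leukaemia (edgeR) of each tested gene of 4 lists of non-members, in model 1 (left, TgSpi1FA-/-) and model 2 (right, TgSpi1FA+/+), with different horizontal scales. Red points were called by edgeR and orange points by DESeq2 alone. In model 1 the 2 red meiosis genes are Hsf2bp and Brdt, and the repressors are red on both sides of 0.

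The second deposited counting of 7 model 1 mice, with 35497594 to 171572736 counts per library, was read for the members only as a check, since it adds no mice. Leukemic_26 held 171572736 counts there against 36036450 in the first counting, and leukemic_39 held 35497594 against 38161124. Whether the same reads were used for the second counting was not settled. By the same threshold 8 members were expressed in it, the 6 that were expressed in the first counting of these mice plus Ddx4 and Tdrd9. Msh5 was at 19.8 to 116 CPM there against 4.53 to 24.5 CPM in the first counting. In the second counting 13 of the 36 members had at most 3 counts in every library and 5 had none.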

How the data were processed

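Tables of whole-number read counts per gene were used as the authors deposited them, 1 for model 1 and 1 for model 2. The submitters' processing notes name bcl2fastq 2.17.1.14, STAR 2.5.3a and HTSeq 0.6.1p1 with the mm10 build, and the annotation and the strand setting of the counting are not given in the sources used here. Libraries were stranded and poly-A selected, so transcripts without a poly-A tail would be missed. A second deposited count table of 7 model 1 mice was read as a check, and a copy of the model 2 table was not used. Positions, exon lengths and overlaps came from the GENCODE M21 annotation of GRCm38, which held 28540 of 28600 gene IDs (99.8%).

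The 36 members and all lists were chosen with earlier results of these data known. Genes without a row were taken as 0 counts. Libraries were grouped by sample title. By the labels, each group holds different mice with 1 library per mouse, which was not settled for preleukemic_445 and preleukemic_479. Counts were filtered with filterByExpr, scaled by TMM and tested with edgeR 4.0.16 (quasi-likelihood test, Benjamini-Hochberg adjustment over all genes tested) in R 4.3.3, with model 1 fitted over its 10 libraries, model 2 over its 7, and the difference between the models over all 17. Single levels were compared by two-sided exact permutation tests (scipy 1.17.1). The scripts were tested on simulated counts. Alternatives were DESeq2 1.42.0, its size factors, other filters, only the compared groups, preleukemic_445 and preleukemic_479 summed, a robust fit, the adjusted p alone, and leaving out each mouse. Leaving out each mouse for the number of members expressed and for the called genes that are no members was added after seeing the data. Members that passed the filter were named with every library's value, those called by either tool and the 8 with the highest mean CPM with their tests in full, and the rest by their highest count. Of the other lists, the called genes and the 2 of highest mean CPM were named. At the library totals, 3 counts correspond to 0.0741 to 0.0984 CPM, which bounds what a count of 0 can exclude, for counting error only.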

Additional observations from a re-analysis of the deposited data

Results flagged for a closer look

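In 20 groups of 4 libraries checked, 3 had a library far from the other 3. Chance gives about 1 in 20 for independent groups of normally distributed values, which these CPM values were not shown to be. The groups of model 1 include preleukemic_445 and preleukemic_479, which were far more alike than other pairs. In TgSpi1FA+/+ preleukaemic blasts of model 1, Ddx4 was at 1.05 CPM in preleukemic_138 against 0.254 CPM or less in the others, a gap of 0.835 of the group's range. In preleukaemic blasts of model 2, preleukemic_837 stood apart for both Rec8 (89.3 CPM against 4.89 or less, a gap of 0.965 of the range) and Tdrd5 (8.90 CPM against 1.52 or less, 0.832 of the range). The same library held the highest counts of Msh4 (23) and Tex14 (17) of the 17 libraries and the highest Stag3 count of model 2 (58), whereas Dazl was lowest there among the preleukaemic libraries of model 2, at 0.371 CPM.

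The leukaemic change of Rnf212 was called different between the models, with a log2 difference, model 1 minus model 2, of 8.56 (SE 2.03, edgeR adjusted p 0.0395), in a test of the difference itself. The filter on low counts favoured a positive difference for this gene, so the call is a description. All 3 leukaemic libraries of model 2 had 0 counts of Rnf212 and the 3 TgSpi1FA-/- leukaemic libraries had 4, 7 and 18. The preleukaemic libraries of model 2 had 3 to 37 counts and the TgSpi1FA-/- preleukaemic ones 0 to 4. The call was kept in 6 of the 17 fits that left out 1 library. Strain, RNA input and fragmentation time also differ between the models.

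The second counting held members above 1 CPM in mice where the first counting was under 0.5 CPM. In leukemic_26, Stag3 was at 7.71 CPM there (1365 counts, against 14 in the first counting), Rec8 at 1.97 CPM, Ddx4 at 1.06 CPM and Tdrd9 at 1.11 CPM. Tdrd9 was at 1.53 CPM in leukemic_39, and Stag3 at 1.15 CPM in preleukemic_445. Why the countings differ was not tested.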

How the results depend on the processing

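The number of members expressed was 7 without any 1 mouse, 10 at a threshold of 0.5 CPM and 17 with more than 3 counts in 2 libraries of a group. In TgSpi1FA-/- blasts at leukaemia, 1782 genes were called, 3067 by DESeq2, and 414 to 2319 when each mouse was left out in turn, with the count under 1782 by more than 1.5 times without leukemic_28, leukemic_39 or any 1 preleukaemic TgSpi1FA-/- library. The number of members called there was 1, but 0 with a filter of 1 CPM (which removes Sycp1), with preleukemic_445 and preleukemic_479 summed or with only the compared groups, 2 with DESeq2 size factors (Sycp1 and Syce2), and 0 to 2 without 1 mouse. For FANCA loss 1 gene was called, 236 by DESeq2, 4 with no filter and 1 to 16 without 1 mouse, and 0 members in any of these. In model 2, 0 genes were called, 471 by DESeq2 and 0 to 1 without 1 mouse, and 0 members, or 1 (Syce2) by DESeq2. For the difference between the models, 673 genes were called, 2002 by DESeq2 and 1 to 1359 without 1 mouse, and 1 member, or 0 to 1 without 1 mouse.

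Of 694 log2 fold changes of members under the alternatives, 649 kept their direction and their side of the threshold, 22 changed direction, 19 lost a call (Sycp1 and Rnf212) and 4 gained one (Syce2). The cause was not tested. Those that changed direction were of members never called. Over the leave-outs, the log2 fold change at leukaemia in model 1 was -5.14 to 1.69 for Tex15. For FANCA loss it was -0.57 to 0.50 for Meiob (0.16 with preleukemic_445 and preleukemic_479 summed), -5.24 to 0.95 for Tex15, -0.80 to 1.12 for Rec8 and -1.54 to 0.018 for Dazl. In model 2 it was -2.84 to 2.75 for Rec8, -0.086 to 1.81 for Dazl, -0.14 to 1.67 for Piwil2, -1.13 to 2.26 for Tdrd5 and -0.12 to 0.42 for Prdm9. The difference between the models was -1.12 to 5.75 for Tex15, -4.50 to 1.11 for Rec8, -3.34 to 0.092 for Tdrd5 and -0.12 to 1.10 for Ddx4.

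No paired analysis was possible because the groups compared hold different mice and share no replicate number. With 3 or 4 mice per group and members mostly under 10 CPM, levels near 3 counts cannot be ranked.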

Other observations

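As a description with no test, the 5 genes whose log2 CPM went most closely with that of Sycp1 over the 10 libraries of model 1 were Eldr (r = 0.950), Srsf10 (r = 0.926), Topors (r = 0.922), Gpbp1l1 (r = 0.915) and Crtc1 (r = 0.914), values that are dominated by preleukemic_224. In that library Srsf10 was at 238 CPM against 133 to 171 CPM in the other 9, and Eldr at 8.39 CPM against 0.903 to 2.96 CPM. The summed level of the 36 members was 371 CPM in preleukemic_224 and 73.8 to 148 CPM in the other libraries of model 1, and 90.9 to 478 CPM in model 2, with the highest sum in leukemic_606, where Syce2 made up 72.2% of it.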
